A study of Arabidopsis thaliana with 12 samples.

Results

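Transcript levels were compared between 3 libraries of trb45 line 2 and 3 libraries of trb123, which are 6 of the 12 libraries of the series. Both genotypes are Arabidopsis thaliana mutants in genes for TELOMERE REPEAT BINDING (TRB) proteins. The trb45 lines were made to study TRB4 and TRB5, and line 2 is one of the 2 lines made independently of each other. The trb123 plants are a triple mutant. The alleles behind either label are not given in the sources used here. The labels call line 2 N°2. Seedlings of both genotypes were untreated and 7 days old. They had been kept cold (4 °C) and dark for 2 days as seeds and were grown on plates with 1% sucrose at 23 °C, with 16 h of light and 8 h of darkness. Ground seedlings gave polyA RNA, which went into stranded DNBSEQ libraries. The labels do not say whether replicates came from separate plates or seed batches, so the p-values below measure the spread between these libraries, which may be technical. Libraries were chosen by their labels alone, and the direct contrast asks where the 2 classes of TRB mutant differ, without reference to wild type.

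TRB proteins bind the telomere repeat through a Myb-like domain at one end of the protein. They also sit at a related short motif, the telobox, in promoters. TRB1, TRB2 and TRB3 are known to recruit Polycomb repressive complex 2 (PRC2), which places the repressive mark H3K27me3 and keeps floral and seed genes silent in seedlings. TRB4 and TRB5 form a separate branch of the family and are also known to interact with PRC2.

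Values are the authors' FPKM (fragments mapped to a transcript, scaled by its length and by the library's total). Differences are of log2(FPKM + 1), trb45 line 2 minus trb123, and adding 1 shrinks the differences of genes at low levels. The 2 groups stand in separate tables with separate gene lists, and the rule that set each list is not given, so any difference in how the tables were made cannot be told apart from genotype. FPKM sums lay between 638692 and 649334 per library, and the total fragment number of a library is not given. Replicates correlated with Pearson's r of 0.977 to 0.990 in trb45 line 2 and 0.986 to 0.996 in trb123, against 0.855 to 0.885 between the groups (across genes, which are not independent). On the first principal component, with 86.3% of the variance, the groups lay apart. Of 12727 genes averaging 5 FPKM or more in either group, 104 lay 2-fold or more away from both other libraries of the group in trb123 replicate 2, and 95 of those lay above. The same count was 34 in trb45 line 2 replicate 3, 17 in trb45 line 2 replicate 2 and at most 1 in the other 3 libraries. For some genes and lists in which the replicates numbered 2 stood out, values without them are given below. For others, among them WRKY18, ZAT12, SNZ, IGMT4 and AT3G05727, only the values with all libraries are given. Of the 20420 genes listed for trb45 line 2 and the 21036 listed for trb123, 20262 were in both lists. The 18303 of these with at least 1 FPKM in at least 3 of the 6 libraries were tested.

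The mutants differed widely, and on FPKM as deposited the direction was more often down in trb45 line 2. A gene was called when its limma adjusted p was under 0.05. That rule picked 10540 genes (57.6%), with 4281 (23.4%) above trb123 and 6259 (34.2%) below it. Counts of called list members below are to be read against these shares. Requiring 2-fold as well left 2197 genes (12%), with 888 (4.85%) above and 1309 (7.15%) below. At 4-fold or more there were 153 higher and 198 lower, and at 16-fold or more 11 in each direction. The median absolute difference over all tested genes was 0.35, with a median standard error of 0.10. The libraries of the 2 groups did not overlap for 10370 of the called genes, and for 11972 of all 18303 tested genes. Lack of overlap, given for single genes below, was thus common. Higher genes made up 40.6% of calls on FPKM as deposited, 49.6% after median-ratio scaling and 50.2% after quantile scaling. The excess of lower genes at 2-fold or more also shrank. Among genes with a promoter window (defined below), 888 were higher and 1286 lower on FPKM as deposited. The counts were 1046 and 1094 after median-ratio scaling, and 1059 and 1064 after quantile scaling. These scalings moved the median difference of all genes, which was −0.08, to about 0, so a difference of this size carries no direction.

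**Figure D1:**
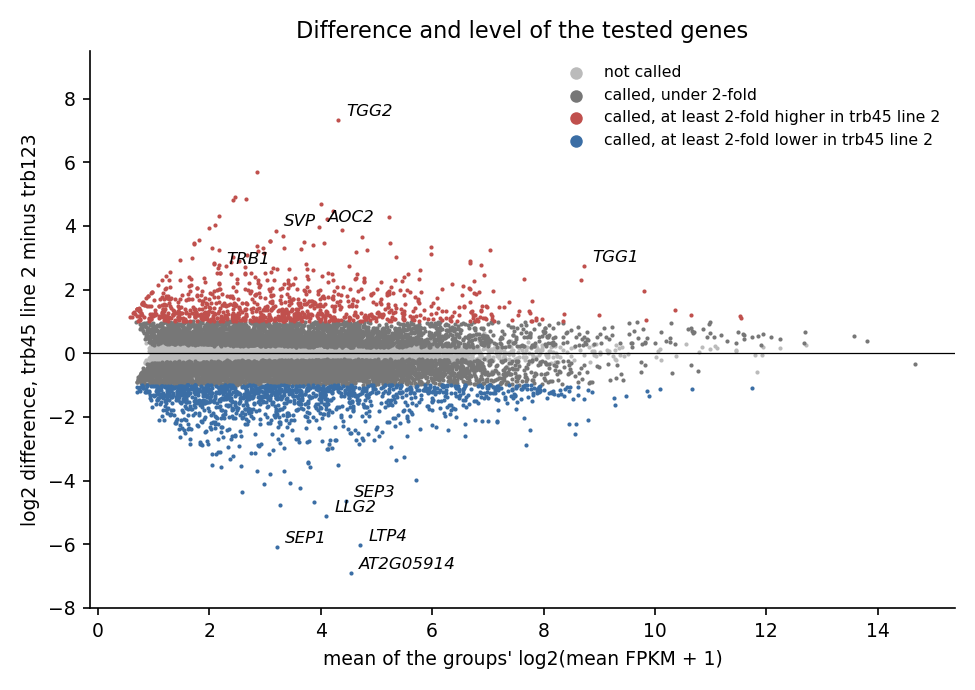
Log2 difference (trb45 line 2 minus trb123, y axis) of the 18303 tested genes against their level (x axis, mean of the groups' log2(mean FPKM + 1)). Red and blue points are the 888 higher and 1309 lower genes called at 2-fold or more, and TGG2 lies highest and AT2G05914 lowest of the named genes.

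The TRB genes themselves separated the genotypes in opposite directions. TRB1 (AT1G49950, chromosome 1) had 10.2, 10.3 and 10.25 FPKM in trb45 line 2, against 0.65, 0.99 and 0.65 FPKM in trb123. TRB2 (AT5G67580, chromosome 5) had 11.6, 11.45 and 10.5 FPKM in trb45 line 2, against 2.52, 3.12 and 2.67 FPKM in trb123. TRB3 (AT3G49850, chromosome 3) had 6.25, 5.98 and 5.38 FPKM in trb45 line 2, against 1.2, 2.01 and 1.59 FPKM in trb123. All trb123 libraries lay below all trb45 line 2 libraries for these 3 genes, with differences of 2.68 (SE 0.10), 1.70 (SE 0.09) and 1.41 (SE 0.13). The direction fits the trb123 label. TRB5 (AT1G72740, chromosome 1) had 3.3, 3.11 and 2.96 FPKM in trb45 line 2, against 14.1, 13.6 and 15.5 FPKM in trb123, a difference of −1.90 (SE 0.09, limma adjusted p = 2.48e-06). TRB4 (AT1G17520, chromosome 1) had 4.89, 4.45 and 6.10 FPKM in trb45 line 2, against 8.71, 6.40 and 6.74 FPKM in trb123. These libraries did not overlap either, but the gap was narrow. The TRB4 difference of −0.43 (SE 0.14) had an adjusted p of 0.0269, and the call was lost without trb123 replicate 1 (0.0945), without trb45 line 2 replicate 1 (0.0807) or replicate 2 (0.0783), and in a fit of all 12 libraries (0.0601). TRB4 overlaps AT1G17530, and reads of overlapping genes cannot be told apart if strand was not used in counting, which is not stated. The transcript level does not show whether a mutant allele is functional, and where the lesions lie relative to the counted fragments is not given. An exact two-sided permutation test gave p = 0.1 for each of the 5 genes, the smallest that 3 libraries against 3 allow. In trb45 line 1, TRB5 had 3.39, 2.85 and 3.51 FPKM and TRB4 had 4.58, 5.34 and 2.96 FPKM.

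**Figure D2:**
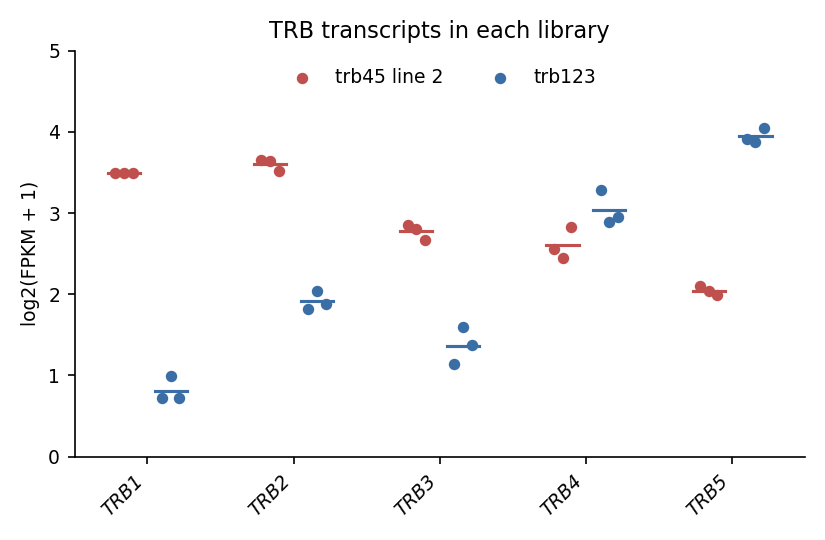
TRB transcripts as log2(FPKM + 1) (y axis) in each library of trb45 line 2 (red) and trb123 (blue). Points are libraries and bars are means of 3. TRB1, TRB2 and TRB3 lie higher in trb45 line 2, TRB5 lies lower, and TRB4 lies lower by a narrow gap.

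Of 4 tested floral MADS-box genes, SEP1 and SEP3 stood far lower in trb45 line 2, PI was lower by less than 2-fold and SEP4 was higher. SEP1 (AT5G15800), a MADS-box factor that acts with the other floral organ factors, had 0.11, 0.11 and 0.13 FPKM in trb45 line 2, against 79.9, 65.4 and 80.4 FPKM in trb123. Its relative SEP3 (AT1G24260) had 3.36, 2.92 and 3.84 FPKM in trb45 line 2, against 117, 98.2 and 109 FPKM in trb123. No library of one group came near the other, and the differences were −6.09 (SE 0.10) and −4.64 (SE 0.10), with limma adjusted p-values of 2.68e-08 and 9.97e-08. PI, which specifies petals and stamens, was lower by a smaller amount, with 0.50, 0.72 and 0.34 FPKM in trb45 line 2, against 1.54, 1.15 and 1.09 FPKM in trb123 (difference −0.57). SEP4 went the other way. It had 3.91, 4.22 and 3.09 FPKM in trb45 line 2, against 0.08, 0.22 and 0.11 FPKM in trb123, a difference of 2.05 (SE 0.12). The whole list held 16 genes. SEP1 overlaps AT5G15790 and AT5G02455.

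Another 7 floral MADS-box genes were listed for trb123 and not for trb45 line 2, so no difference can be given for them. In trb123, SEP2 had 43.6, 35.9 and 42.3 FPKM and AP3, the partner of PI, had 32.7, 23.4 and 39.2 FPKM. AG, which specifies stamens and carpels, had 20.9, 16.6 and 19.1 FPKM, and SHP2, active in carpels and ovules, had 26.4, 18.8 and 24.9 FPKM. SHP1 and STK averaged 5.88 and 5.35 FPKM, and AP1 averaged 0.59 FPKM. All 7 were thus measured in every trb123 library, and for 4 of them the level passed 15 FPKM in each. CRC, a carpel gene of the YABBY family, was likewise listed for trb123 only, at 5.28, 4.37 and 5.78 FPKM.

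Repressors of flowering lay higher in trb45 line 2. SVP, a MADS-box repressor of the floral transition, had 32.8, 35.4 and 30.8 FPKM in trb45 line 2, against 0.95, 2.63 and 0.83 FPKM in trb123. FLC, the vernalisation-responsive repressor, had 5.81, 5.18 and 7.40 FPKM in trb45 line 2, against 1.03, 1.07 and 0.49 FPKM in trb123. The groups did not overlap for either gene, although SVP in trb123 replicate 2 was above the other trb123 libraries. The differences were 3.85 (SE 0.24) for SVP and 1.94 (SE 0.16) for FLC. MAF4, an FLC relative, had 1.87, 1.80 and 2.30 FPKM in trb45 line 2 and was listed at 0 in all trb123 libraries. Of the 7 genes of the FLC and SVP clade, 6 were called higher and 0 lower, with a median of 0.65. The remaining one, MAF3, overlapped between the groups.

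The AP2-like and TEMPRANILLO repressors showed the same direction in part. TOE1, a target of the age-related microRNA miR172, had 33.6, 35.7 and 34.9 FPKM in trb45 line 2, against 4.69, 6.48 and 3.71 FPKM in trb123 (difference 2.61, SE 0.15). SNZ and SMZ, from the same family, were higher by 1.54 and 1.19. TEM2 had 58.3, 61.6 and 63.5 FPKM in trb45 line 2, against 22.5, 49.1 and 20.3 FPKM in trb123, and here trb123 replicate 2 lay between its own group and trb45 line 2. Leaving that library out gave 1.47 in place of 1.08 for TEM2 and 4.17 in place of 3.85 for SVP, and both kept their calls. Of the 9 genes in this list, 5 were called higher and 2 lower, and AP2 itself was one of the lower ones (−1.06).

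Of 14 listed genes that promote flowering 4 were tested, and these did not move together. Another 3, AGL71, AGL72 and CO, were listed for trb123 only, and 4 were listed for neither group. SOC1, which integrates the flowering pathways, had 11.03, 11.7 and 10.02 FPKM in trb45 line 2, against 0.35, 2.39 and 0.27 FPKM in trb123, a difference of 2.73 (SE 0.33). Its relative AGL42 had 0.38, 0.54 and 0.41 FPKM in trb45 line 2, against 5.10, 5.08 and 5.33 FPKM in trb123, a difference of −2.10 (SE 0.09). SOC1 in trb123 replicate 2 was again above the other trb123 libraries, and without it the difference was 3.18. GI and FD, the other tested promoters, were not called. Among 10 tested SPL genes, the miR156-regulated factors of shoot ageing and their relatives, 1 was called higher and 5 lower. The shares over all tested genes were 23.4% higher and 34.2% lower. SPL8 had 3.42, 3.62 and 4.05 FPKM in trb45 line 2, against 23.9, 19.3 and 23.8 FPKM in trb123 (difference −2.31). SPL5 was lower by 1.93 log2 units (log2 difference −1.93) and SPL2 was higher (1.22).

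Genes of the shoot meristem and of organ boundaries were mostly lower in trb45 line 2. KNAT1, a KNOX homeobox gene that keeps meristem cells undifferentiated, had 6.53, 5.17 and 5.72 FPKM in trb45 line 2, against 24.4, 17.5 and 23.4 FPKM in trb123. STM, the KNOX gene needed to keep the shoot meristem, had 1.78, 1.45 and 2.33 FPKM in trb45 line 2, against 6.05, 4.53 and 6.39 FPKM in trb123. Neither gene overlapped between the groups, and the differences were −1.73 (SE 0.14) and −1.22 (SE 0.15). KNAT3 and the boundary gene CUC1 were lower as well (−1.52 and −1.10). Of 12 tested genes of this list, 9 were called lower and 2 higher (KNAT5 and KNAT7, both under 2-fold), with a median of −0.73. In whole seedlings, fewer cells of a type and less RNA per cell cannot be told apart, here and for every gene group below.

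**Figure D3:**
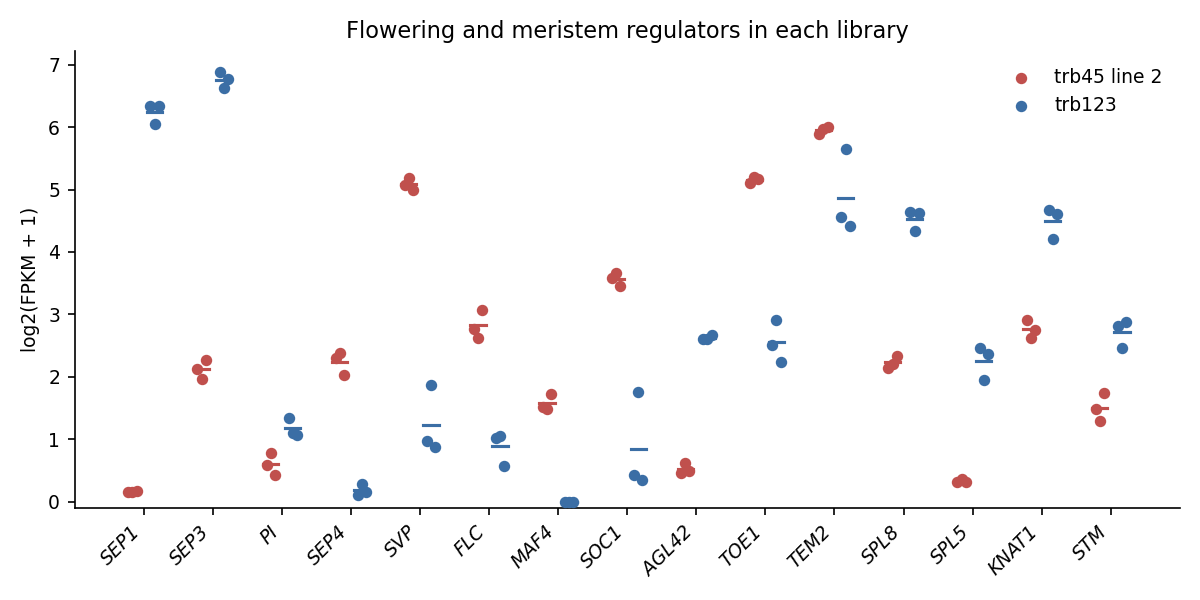
Levels of 15 regulators of flowering and the meristem as log2(FPKM + 1) (y axis) in each library of trb45 line 2 (red) and trb123 (blue). Points are libraries and bars are means of 3. SEP1 lies near the bottom in trb45 line 2 and near the top in trb123. SEP3 also lies far lower in trb45 line 2 than in trb123, and SVP lies far higher. The trb123 points of SVP, SOC1 and TEM2 include 1 high library, replicate 2.

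Among Polycomb genes EMF1 stood out by size. EMF1, which acts with PRC1 and PRC2 to repress floral genes, had 5.65, 5.32 and 5.76 FPKM in trb45 line 2, against 48.0, 46.3 and 45.9 FPKM in trb123. The groups were far apart, with a difference of −2.86 (SE 0.07, limma adjusted p = 1.43e-07). No other tested gene of the PRC1 and VEL list (9 tested, 2 higher and 4 lower) reached 2-fold. For this and the next lists, 23.4% of all tested genes were called higher and 34.2% lower. The PRC2 subunits differed little. Of 6 tested, 3 were called lower and 0 higher, CLF (−0.45), VRN2 (−0.45) and MSI1 (−0.42), while SWN, EMF2 and FIE were not called. The histone demethylases gave 1 higher and 1 lower call among 9 tested. Of 17 tested genes for DNA methylation and silencing, 2 were called higher and 9 lower. The count of lower genes was 7 under both scalings. It was 6 without both libraries numbered 2, with a median of −0.20 in place of −0.32. AGO9, an Argonaute of the germ line, had 0.20, 0.13 and 0.18 FPKM in trb45 line 2, against 2.23, 1.87 and 2.16 FPKM in trb123. ROS1, a DNA glycosylase that removes methylated cytosine, had 5.40, 4.05 and 6.58 FPKM in trb45 line 2, against 1.48, 1.52 and 1.57 FPKM in trb123. These were the 2 genes of the list past 2-fold, at −1.40 for AGO9 and 1.31 for ROS1. Of 10 tested telomere and telomerase genes, 3 were called higher and 1 lower, none at 2-fold. The count of higher telomere genes ranged from 1 to 4 over scalings and left-out libraries. TRP1, a telomere repeat binding protein with a Myb-like domain, had 8.15, 8.72 and 10.4 FPKM in trb45 line 2, against 3.88, 5.20 and 4.21 FPKM in trb123 (difference 0.89).

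Seed storage transcripts were lower in trb45 line 2, and 1 library of that line stood apart. The list's summed FPKM was 5.8, 134.8 and 3.4 in trb45 line 2, against 251.4, 146.1 and 244.3 in trb123. The trb123 sums also hold the storage protein genes SESA4 and CRU2, which were not listed for trb45 line 2. The sums of the groups thus cover different genes, which raises those of trb123. By these sums, replicate 2 of trb45 line 2 lay near replicate 2 of trb123. In trb45 line 1, not part of this contrast, replicate 3 was likewise high, with CRU1 at 1.85, 1.27 and 63.2 FPKM, OLEO1 at 0.80, 0.61 and 22.9 FPKM and SESA2 at 4.51, 3.12 and 152 FPKM in the 3 libraries. For these 3 genes that library lay above every trb123 library. CRU1, a cruciferin storage protein, had 0.59, 21.5 and 0.73 FPKM in trb45 line 2, against 48.4, 40.4 and 45.5 FPKM in trb123 (difference −3.53, SE 0.88). OLEO1, an oil body oleosin, had 0.50, 4.91 and 0.36 FPKM in trb45 line 2, against 22.4, 8.14 and 21.7 FPKM in trb123 (difference −2.88, SE 0.58). Neither gene overlapped between groups. SESA1, SESA2 and SESA3, which encode albumins, and the cruciferin CRU3 did overlap. CRU3 had 0.05, 20.15 and 0.05 FPKM in trb45 line 2, against 19.2, 15.0 and 19.0 FPKM in trb123. Its limma adjusted p was 0.0484, and SESA3 was not called (0.0535). SESA2 had 2.18, 38.1 and 0.56 FPKM in trb45 line 2, against 54.9, 19.9 and 48.6 FPKM in trb123. SESA2 passed the test narrowly (difference −2.74, SE 1.03, adjusted p = 0.0498). Its difference was −4.12 without trb45 line 2 replicate 2 and −1.79 without trb45 line 2 replicate 3, and it lost its call under both scalings, both other filters, the replicate block and most other settings tried. SESA1 (−2.83, adjusted p = 0.0213) lost its call when any one of trb123 replicate 1, trb123 replicate 3, trb45 line 2 replicate 1 or trb45 line 2 replicate 3 was left out (adjusted p between 0.0589 and 0.0763). Of 9 tested members, 8 were called lower and 0 higher. Without the 2 libraries numbered 2 all 9 were called lower, with a median of −4.26 in place of −2.74, and 5 were called when any one of the other 4 libraries was left out. Among embryo programme regulators, ABI5 (−1.75) and AGL15 (−1.39) were lower in trb45 line 2 without overlap, and the list of 6 gave 3 lower and 1 higher.

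Genes for RACK1 and the ribosomal stalk were lower in trb45 line 2 in 12 of 13 cases. RACK1C, one of 3 genes for a scaffold protein of the small ribosomal subunit, had 1.98, 0.68 and 2.41 FPKM in trb45 line 2, against 44.6, 40.5 and 42.9 FPKM in trb123 (difference −4.08, SE 0.23). AT4G25890, an acidic protein of the ribosomal stalk, had 1.43, 0.89 and 1.5 FPKM in trb45 line 2, against 29.1, 32.2 and 30.0 FPKM in trb123 (difference −3.80, SE 0.12). Both pairs of groups lay far apart. RACK1B (−1.60) and AT3G09200 (−1.43) followed. Of the 13 RACK1 and P-stalk genes, 12 were called lower and 1 higher, with a median of −1.03, and these counts were the same under both scalings and with any library left out. A wider set was drawn after the values were seen, the 305 tested genes whose RefSeq product names a ribosomal protein of any compartment. In it 232 (76.1%) were called lower, against 34.2% of all tested genes, and 23 (7.54%) higher, against 23.4%. Another 50 were not called, and the median was −0.86. Members of such families share sequence, and how the authors counted reads that fit more than 1 copy is not stated. In trb123, AT3G28500, another stalk protein gene, was listed at 39.5, 36.2 and 39.4 FPKM and was missing from the trb45 line 2 list.

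The telobox, the short motif that TRB proteins are known to bind, was more frequent in windows of lower genes. Windows ran from 250 bases before to 50 after the gene start in TAIR10.1, and the letters AAACCCTA were searched on both strands. Of 18211 tested genes with a window, 1005 (5.52%) held a telobox. The share was 2.93% (26 of 888) among genes called higher at 2-fold or more and 13.1% (169 of 1286) among those called lower at 2-fold or more. Among 65 genes with 2 or more teloboxes the median difference was −0.67 and 75.4% were called lower. With 1 telobox (940 genes) the median was −0.33 and 53.9% were called lower, and with none (17206 genes) it was −0.06 and 32.8%. These shares are descriptions with no test. Ribosomal protein genes held the motif in 35.7% of windows, and without them the share among genes lower at 2-fold or more was 9.49%, against 5.0% among all remaining genes. Teloboxes of the genes lower at 2-fold or more lay within 50 bases of the gene start in 77.4% of cases, against 53.0% over all tested genes with a telobox. The share did not fall evenly with the difference, since it was 6.54% (10 of 153) among genes higher by 2 log2 units or more.

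**Figure D4:**
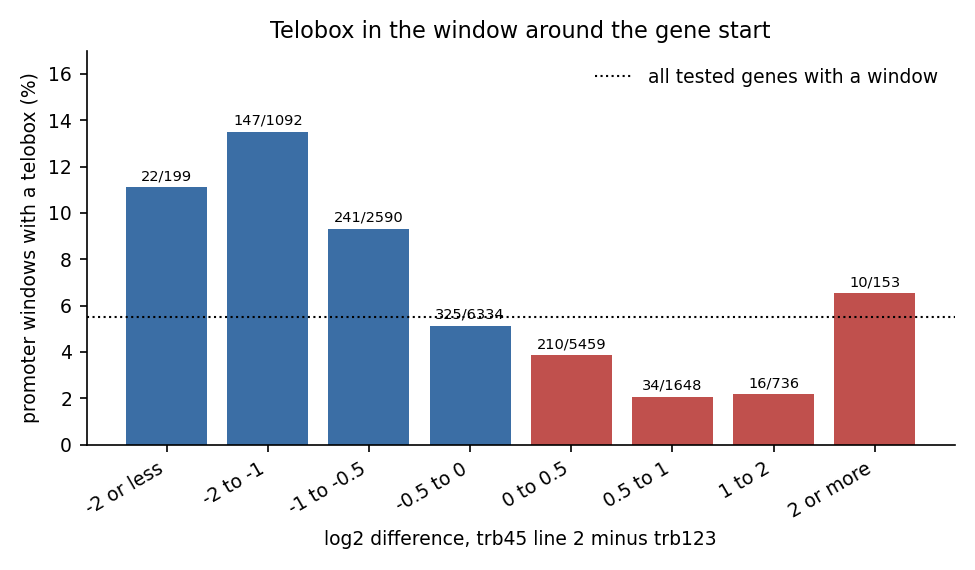
Share of promoter windows with a telobox (y axis, %) by log2 difference between trb45 line 2 and trb123 (x axis), with the number of windows above each bar. The dotted line is the 5.52% of all tested genes, and the shares run from 13.5% in the bin of −2 to −1 down to 2.06% in the bin of 0.5 to 1.

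Other motifs were counted in the same windows. The site II element TGGGCC, often found beside teloboxes in ribosomal protein promoters, was in 7.88% of windows of genes higher at 2-fold or more, 17.1% of those lower at 2-fold or more and 19.3% of all. The G-box CACGTG was in 8.22%, 9.88% and 8.94% of the same sets. The repeat GAGAGAGA was in 8.33%, 6.84% and 8.45%. Over all called genes, with no minimum fold, the order of higher and lower genes turned for the G-box (10.5% of higher and 8.31% of lower genes), and site II was in 14.8% of higher and 21.3% of lower genes, the last above the share of all. GAGAGAGA was then in 8.32% and 7.70%, and the telobox in 2.69% and 8.97%. A match is not evidence of a bound site.

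The stretches around the telobox are shown for genes with large differences in either direction, since the motif occurs in both. Each is 30 bases of the gene's own strand in TAIR10.1, 5′ to 3′, with the telobox in capitals, and all these genes but the TGG pair were lower in trb45 line 2.
LTP4, chr5:23925908-23925937, minus strand: ccaactactaacAAACCCTActtagtcatc
LTP3, chr5:23928888-23928917, plus strand: caactactaacAAACCCTActtagtcatca
LLG2, chr2:8925940-8925969, minus strand: ttactcaagtaTAGGGTTTagagcagagta
AT4G00390, chr4:172823-172852, minus strand: cgtttcgtcacAAACCCTAagaagcttctc
NAP57, chr3:21156049-21156078, minus strand: actgtcgcctaAAACCCTAaaAAACCCTAg
TGG2, chr5:9072693-9072722, plus strand: aaaggctatatAAACCCTAgattggcacaa
TGG1, chr5:9082390-9082419, minus strand: aaaggctatatAAACCCTAgattggcacta
In LLG2 the telobox lies on the other strand and therefore reads in reverse complement. Its first base lay 154 bases before the gene start in LLG2, 55 before in LTP3 and 4 before in TGG2, and 32 bases after the start in LTP4. AT4G00390 holds another telobox further downstream, and AT4G00390 and NAP57 were picked for print after their values were seen, among genes with 2 or more teloboxes.

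Upstream windows, the 250 bases before the start, are shown whole for a ribosomal L7Ae family gene and a snoRNP gene, also picked after their values were seen. Capitals mark the telobox and, in NOP56, the site II element, in either orientation.
AT4G12600, chr4:7452946-7453195, plus strand: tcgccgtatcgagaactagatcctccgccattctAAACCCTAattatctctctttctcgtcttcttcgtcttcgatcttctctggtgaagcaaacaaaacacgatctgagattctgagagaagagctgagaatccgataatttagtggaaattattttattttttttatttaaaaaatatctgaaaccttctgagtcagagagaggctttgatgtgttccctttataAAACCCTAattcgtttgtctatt
NOP56, chr1:20986953-20987202, minus strand: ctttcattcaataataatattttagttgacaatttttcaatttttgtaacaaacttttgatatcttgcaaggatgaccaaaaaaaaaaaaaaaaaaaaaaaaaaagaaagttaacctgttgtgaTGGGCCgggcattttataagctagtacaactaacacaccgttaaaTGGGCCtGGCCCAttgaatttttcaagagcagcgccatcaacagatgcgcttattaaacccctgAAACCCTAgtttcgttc
AT4G12600, a member of the ribosomal L7Ae family, had 13.6, 8.96 and 14.7 FPKM in trb45 line 2, against 84.45, 76.3 and 77.6 FPKM in trb123 (difference −2.61, SE 0.16). NOP56, a core protein of box C/D snoRNPs, had 17.5, 14.0 and 18.6 FPKM in trb45 line 2, against 65.1, 58.8 and 57.9 FPKM in trb123 (difference −1.81, SE 0.11). NAP57, the pseudouridine synthase of box H/ACA snoRNPs, was lower by a like amount (−1.80). For none of these 3 did the groups overlap.

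Lipid transfer proteins, which carry cuticle lipids in the cell wall and are abundant in epidermis, held one of the largest falls. LTP4 (AT5G59310) had 2.03, 3.73 and 1.2 FPKM in trb45 line 2, against 224, 165 and 229 FPKM in trb123, and its neighbour LTP3 (AT5G59320) had 12.4, 14.65 and 11.03 FPKM in trb45 line 2, against 109, 101 and 106 FPKM in trb123. The differences were −6.02 (SE 0.26) and −2.96 (SE 0.10), with no overlap. The telobox stretches of the pair, printed above, are nearly the same letters, and the genes are near copies of each other. LTP6 (−2.16) and LTP2 (−1.26) were also lower and LTP7 was higher (1.27), so that of 7 tested members 6 were called lower and 1 higher. Over scalings and left-out libraries the count of lower members ranged from 4 to 6, with 4 under median-ratio scaling and 5 under quantile scaling.

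The other largest falls were of varied kinds. AT2G05914, annotated as other RNA, had 1.21, 0.98 and 1.16 FPKM in trb45 line 2, against 243, 254 and 262 FPKM in trb123, and this was the largest fall of all (−6.91, SE 0.08). It overlaps AT2G05915. LLG2, a GPI-anchored helper of receptor kinases in pollen tubes, had 2.08, 2.09 and 1.56 FPKM in trb45 line 2, against 101, 91.1 and 106 FPKM in trb123 (−5.11, SE 0.10), and it overlaps AT2G20690. UMAMIT14, an exporter of amino acids, had 0.64, 0.72 and 1.14 FPKM in trb45 line 2, against 52.0, 43.6 and 52.2 FPKM in trb123 (−4.78). In each the groups stood more than 10-fold apart. ENDO3, a nuclease (−4.35), AT1G11070, a hydroxyproline-rich glycoprotein (−4.66), AT1G67105, annotated as other RNA (−4.23), and AT2G01010, annotated as 18S ribosomal RNA (−4.11), complete the 10 largest falls. The libraries were made from polyA RNA, which recovers ribosomal RNA only in part. Among genes averaging 100 FPKM or more in both groups, AGP10, an arabinogalactan protein, had 189, 140 and 131 FPKM in trb45 line 2, against 558, 1067 and 1164 FPKM in trb123 (−2.54). OEP6, a protein of the chloroplast outer envelope (−2.22), and GASA1, a gibberellin-regulated peptide (−2.21), were lower by similar amounts.

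Myrosinases, the enzymes that split glucosinolates in wounded tissue, held the largest rise. TGG2 (AT5G25980) had 288, 182 and 281 FPKM in trb45 line 2, against 0.59, 0.54 and 0.50 FPKM in trb123. TGG1 (AT5G26000) had 1143, 983 and 1168 FPKM in trb45 line 2, against 149, 194 and 149 FPKM in trb123. TGG2 was thus close to absent from trb123, and TGG1 was lower there than in trb45 line 2. The differences were 7.32 (SE 0.17, limma adjusted p = 1.02e-07) and 2.74 (SE 0.12). In trb45 line 1, TGG2 had 147, 77.1 and 163 FPKM. The specifier proteins ESP (1.70) and ESM1 (1.48), which set the product formed, were higher too. Of the 6 genes of the myrosinase system, 5 were called higher and 0 lower, and FAMA, the factor that drives myrosin and guard cell fate, was not called. The stomatal lineage list, which shares FAMA, gave 4 higher and 2 lower of 14, none at 2-fold, and its higher count ranged from 3 to 7 over scalings and left-out libraries, with 7 under median-ratio scaling and without both libraries numbered 2.

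Glucosinolate synthesis genes went both ways. MAM1, which extends the side chain of aliphatic glucosinolates, had 158, 115 and 128 FPKM in trb45 line 2, against 18.24, 27.0 and 18.6 FPKM in trb123. MAM3, its neighbour in the same step, had 20.3, 20.4 and 11.9 FPKM in trb45 line 2, against 91.5, 85.6 and 84.8 FPKM in trb123. The pair moved in opposite directions, by 2.60 (SE 0.17) and −2.29 (SE 0.18). IGMT1, a methyltransferase of indole glucosinolates, had 27.1, 30.2 and 25.4 FPKM in trb45 line 2, against 1.19, 2.16 and 1.15 FPKM in trb123 (3.54, SE 0.15), and IGMT4 was higher by 2.32. Of 24 tested genes 8 were called higher and 9 lower, all 8 of the higher ones at 2-fold or more and 2 of the lower ones. The list's median, −0.02, changed sign with scaling (0.07 and 0.10), so the list has no direction as a whole.

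Jasmonate synthesis genes were higher in trb45 line 2 at some steps. AOC2, an allene oxide cyclase, had 60.6, 63.6 and 51.85 FPKM in trb45 line 2, against 2.06, 5.81 and 1.59 FPKM in trb123 (3.98, SE 0.31). AOC1 had 34.3, 36.5 and 31.1 FPKM in trb45 line 2, against 1.51, 3.12 and 1.01 FPKM in trb123 (3.67, SE 0.23). Both lay clear of trb123, where replicate 2 was again the highest, and without it the differences were 4.4 for AOC2 and 3.96 for AOC1. LOX2, the lipoxygenase that starts the pathway in leaves (2.24), and the jasmonate-responsive storage protein VSP2 (2.2) were higher as well. Of 19 tested jasmonate genes 8 were called higher and 4 lower, with a median of −0.06 that became 0.04 or 0.03 with scaling. AOC3, OPR3, JAZ1 and JAZ10 were the lower ones.

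Among stress-inducible regulators 9 of 19 tested were called lower in trb45 line 2, where 34.2% of all tested genes were. For the genes with the largest differences trb123 replicate 2 was the highest library. WRKY53, a factor of leaf senescence and defence, had 2.12, 2.13 and 1.04 FPKM in trb45 line 2, against 15.9, 30.9 and 12.6 FPKM in trb123 (−2.84, SE 0.30). ERF105 had 9.03, 11.6 and 7.29 FPKM in trb45 line 2, against 44.2, 91.0 and 36.9 FPKM in trb123 (−2.41, SE 0.31). Groups did not overlap, and without trb123 replicate 2 the differences were −2.48 for WRKY53 and −2.03 for ERF105. WRKY18 and ZAT12 were lower by 2.19 and 2.16 log2 units (−2.19 and −2.16). In this list of zinc finger, WRKY and ERF genes 1 was called higher and 9 were not called, with a median of −0.82. Without trb123 replicate 2 the counts were 9 lower and 4 higher and the median was −0.29. Without either library numbered 2 they were 11 lower and 3 higher, with a median of −0.48. Small heat shock proteins and HSP101, chaperones made in heat (HSFA2, also listed, was not tested), were called lower in 7 of 8 tested cases and higher in 1. AT5G51440 had 5.49, 4.85 and 5.75 FPKM in trb45 line 2, against 21.8, 17.9 and 22.7 FPKM in trb123 (−1.77), and here trb123 replicate 2 was the lowest of its group.

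Nuclear photosynthesis genes were modestly higher in trb45 line 2. LHCB1.2, a light-harvesting protein of photosystem II, had 4490, 3780.3 and 5132 FPKM in trb45 line 2, against 1953, 2007 and 1941 FPKM in trb123 (1.17, SE 0.12). LHCA1, its counterpart in photosystem I, had 4372, 4066 and 4800 FPKM in trb45 line 2, against 1981, 1963 and 2153 FPKM in trb123 (1.12, SE 0.10). Of 23 genes 19 were called higher and 1 lower, 2 of them at 2-fold or more, with a median of 0.50. Under quantile scaling 14 were higher and the median was 0.24. RBCS1A, a gene for the small subunit of Rubisco and the most abundant transcript in every library, was the lower one (−0.35). The chloroplast's own transcripts, recognised by their gene IDs after the values were seen, went the other way, with 53 of 67 called lower, 0 higher and a median of −0.77. Of 9 tested mitochondrial transcripts, recognised in the same way, 4 were called lower and 0 higher, with a median of −0.42. PolyA selection recovers transcripts of both organelles only in part.

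Aquaporins of the plasma membrane (PIP), which let water cross cells, were mostly higher. PIP2;4 averaged 22.3 ± 4.82 FPKM in trb45 line 2 and 2.71 ± 0.28 FPKM in trb123 (SD, n = 3 each), without overlap (2.63, SE 0.15). PIP1;3 had 444, 384 and 525 FPKM in trb45 line 2, against 84.3, 95.9 and 82.6 FPKM in trb123 (2.34, SE 0.12). PIP2;5 was the exception past 2-fold, with 4.94, 2.78 and 5.73 FPKM in trb45 line 2, against 17.59, 15.68 and 17.2 FPKM in trb123 (−1.74). The list of 13 aquaporins had 9 higher and 2 lower members and a median of 0.66. Root markers give some measure of tissue make-up here. The summed FPKM of the endodermis, stele and tip list was 156.6, 174.2 and 134.0 in trb45 line 2, against 148.4, 148.7 and 158.7 in trb123. The root hair list summed to 125.5, 203.5 and 63.3 in trb45 line 2, against 136.3, 132.3 and 157.5 in trb123. Both sums overlapped between groups, and CASP1, PHO1 and COBL9 were detected in all 6 libraries. Of 9 tested endodermis, stele and tip markers 2 were called higher and 3 lower, and of 7 root hair genes 0 higher and 2 lower. Over scalings and left-out libraries the endodermis, stele and tip list gave 2 to 5 higher and 2 or 3 lower, with 5 higher without trb45 line 2 replicate 3. The root hair list gave 1 to 4 lower, with 1 under quantile scaling or without trb123 replicate 1, trb123 replicate 3 or trb45 line 2 replicate 1, and 4 (median −0.90 in place of −0.51) without both libraries numbered 2. The part of tissue proportions in the results above was not tested.

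Growth and timing genes filled the remaining lists. PIN4, an auxin exporter, had 24.1, 23.7 and 25.7 FPKM in trb45 line 2, against 6.01, 8.85 and 7.37 FPKM in trb123 (1.61, SE 0.12). IAA29, an auxin-induced repressor, was higher by 1.57. Of 12 tested auxin genes 8 were called higher and 4 lower, with a median of 0.70. Among clock genes the morning factor LHY had 7.91, 8.62 and 7.21 FPKM in trb45 line 2, against 37.9, 28.8 and 34.2 FPKM in trb123 (−1.95, SE 0.11). Its partner CCA1 was higher (0.61), PRR7, a repressor of both, was higher by 1.29, and RVE2 was lower (−1.10). LHY and CCA1 thus differed in opposite directions, and of 14 clock genes 6 were called higher and 4 lower. Over all tested genes 23.4% were called higher and 34.2% lower. The sampling time within the day is not given. Of 17 cell cycle and replication genes, 11 were called lower and 2 higher, none at 2-fold, with a median of −0.46. Without both libraries numbered 2 the counts were 7 and 4, and the median was −0.26.

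Smaller lists are given by their counts. Flavonoid genes gave 6 lower and 0 higher of 9 tested, led by CHS, the entry enzyme, with 67.6, 65.8 and 36.2 FPKM in trb45 line 2, against 166, 138 and 152 FPKM in trb123 (−1.46). Gibberellin oxidases gave 1 higher and 3 lower of 5, led by GA2OX2, an inactivating enzyme (−2.01). Cold-regulated genes gave 3 higher and 0 lower of 8, with COR15B at 1.28. Cuticular wax genes gave 2 higher and 1 lower of 8, and YABBY genes 2 higher and 1 lower of 4, none at 2-fold.

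Several genes were present in trb45 line 2 and listed at 0 in all trb123 libraries. AT5G26270 had 50.5, 63.2 and 41.7 FPKM in trb45 line 2, AT2G04378 had 28.9, 24.8 and 33.9 FPKM, and SADHU1-1, from a family of Arabidopsis retroposons, had 29.6, 21.2 and 31.6 FPKM. AT2G13970 and AT4G01593 averaged 10.01 and 9.89 FPKM. These are the 5 tested genes that averaged 5 FPKM or more in one group and were at 0 throughout the other, and each overlaps another annotated gene. Among the other largest rises, AT5G05060 of the cystatin superfamily had 35.8, 29.4 and 33.2 FPKM in trb45 line 2, against 0.24, 0.12 and 0.20 FPKM in trb123. AT2G33850, an E6-like protein, had 174, 183 and 137 FPKM in trb45 line 2, against 6.72, 8.73 and 6.87 FPKM in trb123 (4.29, SE 0.13). AT4G23670, a polyketide cyclase family protein, was the largest rise among abundant genes after TGG1, with 894, 961 and 851 FPKM in trb45 line 2, against 203, 157 and 196 FPKM in trb123 (2.28, SE 0.11). All 3 stood clear of trb123, which for AT5G05060 and AT2G33850 was a condition of being named. SQP1 (4.45), MLP328 (4.22), AT3G05727 (4.70) and AT5G28919 (4.31) complete the 10 largest rises.

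**Figure D5:**
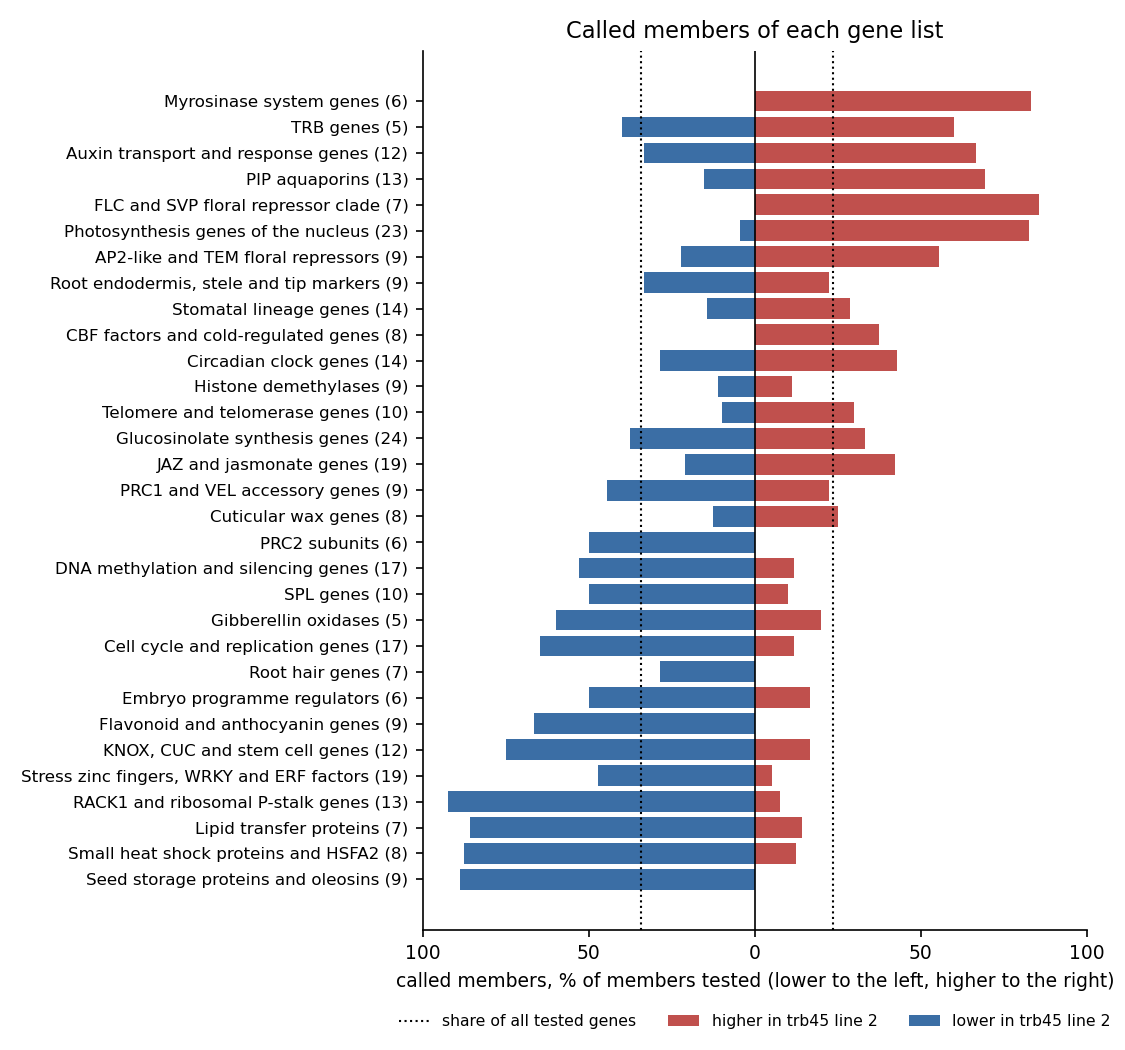
Members called lower (blue, to the left) and higher (red, to the right) in trb45 line 2, as a percentage of the members tested, for each list with at least 5 tested members (number in brackets), sorted by median difference. Dotted lines are the shares of all tested genes, 34.2% lower and 23.4% higher.

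Genes listed for only one group could not be tested. For trb45 line 2 there were 158, of which 26 averaged 1 FPKM or more, with a highest mean of 5.45. For trb123 there were 774, of which 316 averaged 1 FPKM or more and 67 averaged 5 or more. The highest was AT3G49270, an extensin-like gene, with 81.3, 60.5 and 87.4 FPKM, and AT5G11360 and AT5G33251 averaged 60.0 and 59.8 FPKM. SVL3, from a family of wall-modifying GPI-anchored proteins, had 50.7, 47.8 and 53.3 FPKM. The storage protein genes SESA4 and CRU2 and the stress factors ZAT11 and ERF13 were also in the trb123 list alone. Being unlisted does not show that a gene was at 0 in trb45 line 2. Among the genes named above, FLC, SMZ, SPL8, SPL5, OLEO1, AT4G25890, AT3G09200, CHS, COR15B, WRKY53, ERF105, AGP10, AT5G28919, NOP56, CLF, FIE, MSI1, SHP1, SHP2, STK, CRC, CASP1, HSP101, JAZ10 and AT5G11360 also overlap another annotated gene. TGG1 and TGG2, LTP3 and LTP4, AOC1 and AOC2 and the IGMT, MAM, LHCB1, PIP, RBCS, RACK1 and SESA genes have close copies, between which reads may have been split.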

How the data were processed

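The authors deposited FPKM values, in a separate block of columns for each of the 4 groups. The submitters' processing notes name STAR 2.7.1, DESeq2 and the build TAIR10, without roles, and the rest of the upstream processing is not given in the sources used here. The values of trb45 line 1, in the deposited file with comma decimals (a unit recorded as other), entered one alternative and side-by-side values. Repeated gene IDs (174 and 179 per table, identical values) were used once, and tables were joined by ID.

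Values were tested as log2(FPKM + 1) with limma 3.58.1 in R 4.3.3 (eBayes with trend, 6 libraries), after a filter of 1 FPKM in 3 libraries, with Benjamini-Hochberg adjustment over all 18303 genes. No count test was run, since FPKM are not counts. The code was tested on simulated data. Promoter windows and positions came from TAIR10.1 (RefSeq). Symbols came from RefSeq, and TRB4 and TRB5 were assigned by gene ID.

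Named genes were the TRB genes, the 10 largest rises and falls with non-overlapping libraries and a mean of at least 5 FPKM, up to 4 members per list past 2-fold, the 5 largest changes among genes over 100 FPKM and genes at 0 in one group. Other names are list members given for their values. The comparison, the 34 lists and the tests were chosen with earlier results of these data known. Alternatives were other filters, pseudocounts, scalings and variance models, a stricter threshold, a 12-library fit, a replicate block and each library left out.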

Additional observations from a re-analysis of the deposited data

How the results depend on the processing

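The 4 counts of called genes stayed within 1.5 times of the reported ones in every alternative run except the 2-fold minimum, which leaves 2197 of 10540 genes. With each library left out, called genes numbered 8892 to 10357. Without both replicates numbered 2 (chosen after seeing the data) there were 10056, of which 9328 were shared. The fit of all 12 libraries shared 9368 calls with the main fit. Of 98 named genes, 94 kept direction and call in every alternative that tested them, and the others were TRB4, TEM2, SESA1 and SESA2. Not every named gene was in every alternative. The filter of 5 FPKM left out genes at low levels, such as MAF4. AGO9 was not listed for trb45 line 1 and so was not in the fit of all 12 libraries. Most named genes were picked for large called differences, which largely sets this outcome, so it does not describe called genes in general. TEM2 missed only the threshold of 0.01. No named gene reversed. Same-numbered libraries did not deviate together (r of −0.04, 0.03 and −0.06), and differently numbered ones gave r from −0.05 to 0.09. The labels state no pairing, and such correlations among 3 libraries per group cannot show whether the numbers pair the samples. A fit with the replicate block called 10100 genes and lost SESA2. The telobox share of genes lower at 2-fold or more ranged from 12% to 14.4% over scalings and left-out libraries. Depth is not given, so low values carry an unknown counting error.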

Other observations

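A short stretch of chromosome 5 held several of the large rises, noticed after the values were seen. Between 9000000 and 9249999 (TAIR10.1), 5 of 28 tested genes were called at 4-fold or more (17.9%, against 1.92% of all tested genes), and all 5 were higher in trb45 line 2. They were AT5G25840 (2.15), TGG2 (7.32), TGG1 (2.74), AT5G26260 (3.32) and AT5G26270, which was listed at 0 in trb123. No test was made of this stretch.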
